A study of Mus musculus with 12 samples.

Results

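The genes C1qa, C1qb, C1qc, P2ry12, P2ry13, Tmem119, Cx3cr1, Csf1r and Laptm5, 9 of the 32531 features of each count table, were taken by symbol as markers of microglia, and all 9 passed the filter on low counts. They were followed in 4 groups of 3 libraries: ribosome-bound RNA purified through the tag (IP) and total RNA before purification (input), each from hypothalamus and from midbrain. The method was translating ribosome affinity purification (TRAP), in which a ribosomal protein fused to EGFP is made in chosen cells and their polysomes are captured with antibodies to EGFP. The hypothalamus IP, hypothalamus input, midbrain IP and midbrain input all came from adult mice carrying the Slc17a6-EGFP/Rpl10a JX883 transgene, so the input groups carried the tag as well. The tag follows Slc17a6, whose product VGLUT2 loads glutamate into synaptic vesicles of many subcortical neurons. An IP from animals without the tag is not among the groups, and neither an age beyond adult nor the number of animals behind each library is given in the sources used here. All IPs carried the same sequencing index and all inputs another, so fraction and index cannot be told apart, and within a replicate number the regions ran on different lanes. All p-values therefore measure the spread between these libraries, which may be technical.

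Microglia are the resident macrophages of the brain. They depend on the receptor Csf1r to survive, sense neurons through the fractalkine receptor Cx3cr1 and move their processes toward nucleotides released by other cells through the receptor P2ry12. They are also the main source in the brain of C1q, the recognition molecule that opens the classical complement cascade. Microglia are not among the cells known to use VGLUT2. The quantity compared here is the residual share, the mean IP level of a gene as a percent of its mean input level.

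C1qa, C1qc and C1qb, which encode the A, C and B chains of C1q, lie side by side on the minus strand of chromosome 4 (mm10, 136895917 to 136898803, 136889804 to 136893065 and 136880129 to 136886187). P2ry13 and P2ry12 neighbour each other on the minus strand of chromosome 3 (59207892 to 59210882 and 59216272 to 59262871). Both sit inside Med12l, which is read from the other strand, and without the strand setting of the counting, reads of these genes and Med12l cannot be told apart. Tmem119 lies on chromosome 5 (113793729 to 113800516) on the minus strand, Cx3cr1 on chromosome 9 (119901616 to 120069879, minus strand) and Laptm5 on chromosome 4 (130913125 to 130936141, plus strand). The long annotated model of Cx3cr1 overlaps Csrnp1, Gorasp1, Ttc21a, Wdr48 and Xirp1. None of these 5 genes was called in IP against input, and Xirp1 was too low to test.

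A RefSeq window of the 250 bases before the transcription start (GRCm38.p6) was held for 6 of the 9 genes, all but C1qa, Tmem119 and Csf1r. The 3 windows shown are those of a C1q chain and of the neighbouring purine receptors, given 5′ to 3′ on the gene's strand at chr4:136886201-136886450, chr3:59262986-59263235 and chr3:59210883-59211132, all minus strand. Capitals mark GAGGAA, the core bound by the myeloid factor PU.1, searched on both strands as GAGGAA or TTCCTC.
C1qb: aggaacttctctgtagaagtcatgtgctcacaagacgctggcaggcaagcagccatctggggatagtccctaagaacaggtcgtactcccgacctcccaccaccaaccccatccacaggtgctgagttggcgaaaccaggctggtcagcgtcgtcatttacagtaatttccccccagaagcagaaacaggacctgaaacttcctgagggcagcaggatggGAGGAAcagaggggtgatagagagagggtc
P2ry12: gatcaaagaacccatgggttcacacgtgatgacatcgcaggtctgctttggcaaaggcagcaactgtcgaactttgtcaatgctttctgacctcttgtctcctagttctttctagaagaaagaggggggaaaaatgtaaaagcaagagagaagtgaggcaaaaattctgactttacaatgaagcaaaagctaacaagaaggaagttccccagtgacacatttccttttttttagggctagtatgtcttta
P2ry13: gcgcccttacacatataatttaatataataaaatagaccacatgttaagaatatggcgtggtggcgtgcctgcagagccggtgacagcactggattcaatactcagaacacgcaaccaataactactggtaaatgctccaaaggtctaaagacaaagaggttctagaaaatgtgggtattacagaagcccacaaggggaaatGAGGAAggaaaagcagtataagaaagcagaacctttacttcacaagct
The motif was found in 4 of the 6 windows, those of C1qb, C1qc, P2ry13 and Laptm5. Its base nearest to the RefSeq start stood 25 bases before it in C1qb and 43 bases before it in P2ry13. The first bases after the start were found in a GENCODE transcript for P2ry13, but not for C1qb and P2ry12. The RefSeq starts of these 2, at 136886200 and 59262985, lie outside the GENCODE genes, which end at 136886187 and 59262871. Distances and the absence in P2ry12 hold for the RefSeq starts only. Of all 32851 windows of this length 23.3% held it. The match describes letters only.

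Each library held between 41909019 and 55148109 counts, and the floor used here, 3 counts, equalled 0.0537 to 0.071 CPM. CPM are counts relative to library size, scaled by TMM, edgeR's trimmed mean of M values. A gene was called where edgeR's quasi-likelihood test gave a Benjamini-Hochberg adjusted p under 0.05, and log2 fold changes are IP over input unless another pair is named. Markers of the labelled regions were compared between the inputs. Hcrt, the orexin gene of the lateral hypothalamus, was between 101 and 182 CPM in the hypothalamus input and between 0.269 and 1.66 CPM in the midbrain input. Tph2, the serotonin enzyme, was between 1.36 and 7.59 CPM in the midbrain input and at most 0.161 CPM in the hypothalamus input. Slc6a3, the dopamine transporter gene, overlapped, at 33.7 to 75.3 CPM in the midbrain input and 5.01 to 38.8 CPM in the hypothalamus input. Slc17a6, the driver of the tag, rose by 2.60 in the hypothalamus IP (log2, SE 0.49, adjusted p = 0.00184) and by 1.82 in that of the midbrain (SE 0.48, adjusted p = 0.0116). The IPs also differed from the inputs as libraries: Rn45s took 5.21% to 12.5% of counts in the IPs and 2.57% to 3.97% in the inputs. Ambiguous reads were 2.67% to 3.19% in the IPs and 5.77% to 21.8% in the inputs, as a share of reads counted, ambiguous or on no feature. Replicate 1 stood apart, with 12.3% and 12.5% Rn45s in its IPs (at most 6.85% in the other IPs) and 21.8% and 19.9% ambiguous reads in its inputs (at most 13.1% in the other inputs). The part of these differences in the results was not tested.

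What remained of the microglia genes on the captured ribosomes was asked first. All 9 fell in both IPs, and for each of them every IP library lay below every input library of its region. In the input the genes had between 32 and 1078 counts per library. In the IP no value exceeded 66 counts, 18 of the 54 values were at or under the floor of 3 counts and 9 were 0. The median log2 fold change of the 9 was −5.31 in the hypothalamus (−4.88 with C1qa, which had no IP count, at its bound) and −4.12 in the midbrain, beside −0.08 and −0.05 over all genes tested. Of the 18128 genes tested, 19.6% fell in the hypothalamus and 19.9% in the midbrain, and 27.3% and 27.8% had all IP libraries below all inputs. Across all genes 14.2% and 14% rose, and 19.7% and 21.1% had all IP libraries above all inputs; none of the 9 did either. Scaling by library size alone moved the share of higher genes among those called from 42.1% to 28.9% in the hypothalamus and from 41.4% to 34.3% in the midbrain, with a median over all genes of −0.25 in the former, and left all 9 called lower. Where inputs are compared with each other below, fewer cells of a type and less RNA per cell cannot be told apart, since inputs are bulk RNA.

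**Figure D1:**
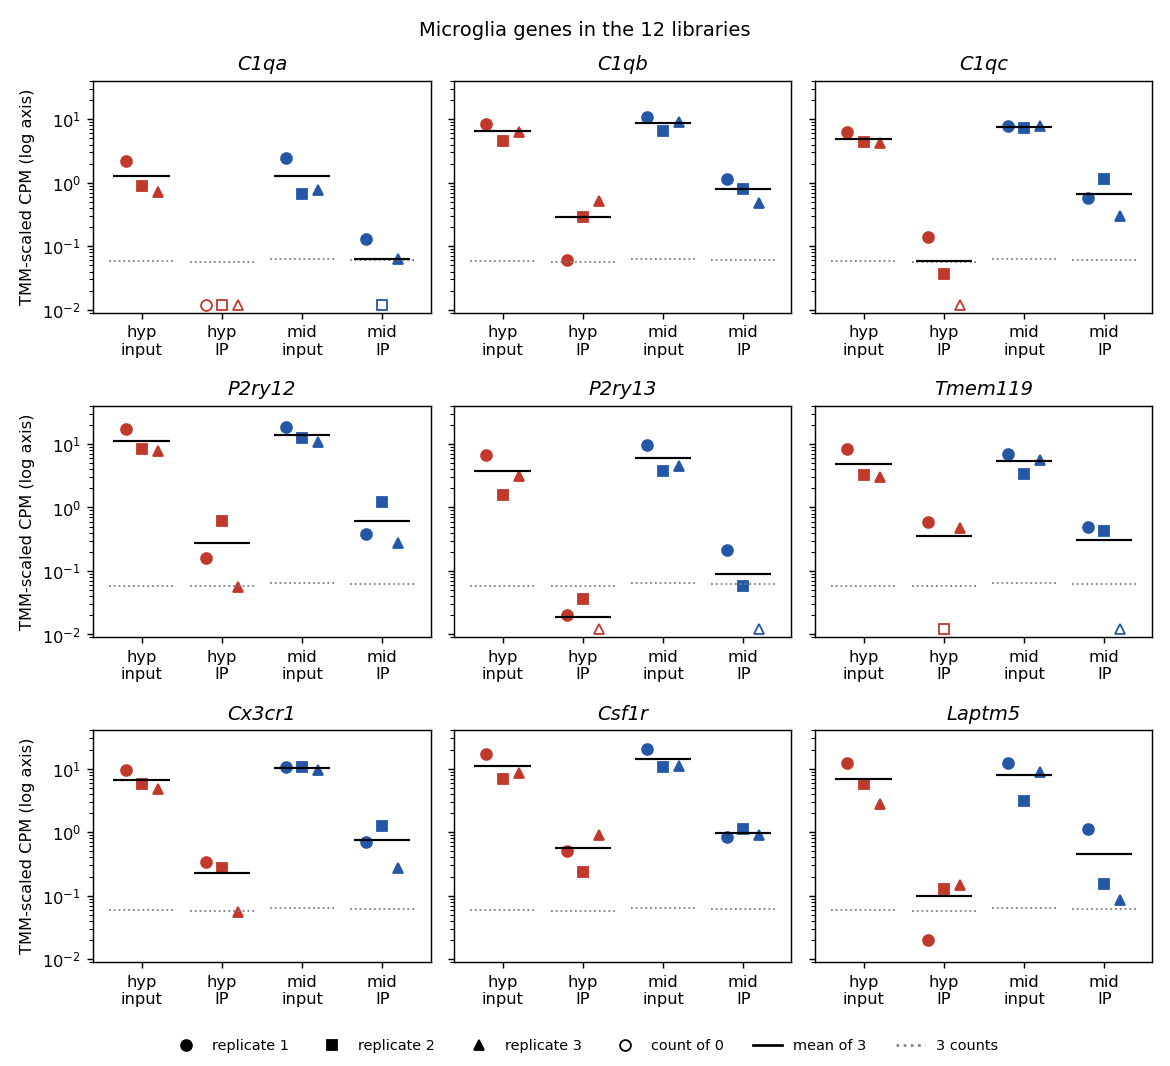
Level of each microglia gene in the 12 libraries, in TMM-scaled CPM on a log axis, for the input and IP of hypothalamus (hyp, red) and midbrain (mid, blue). Symbols are replicates 1 to 3, bars their means, dotted lines the level of 3 counts, and open symbols at the foot libraries with a count of 0; in every panel the IP libraries lie below the inputs of their region.

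All 3 C1q chains fell in both regions. C1qb, the B chain, was at 8.50, 4.49 and 6.34 CPM in hypothalamus inputs 1, 2 and 3 and at 0.0604, 0.294 and 0.525 CPM in the IPs, and at 10.7, 6.49 and 8.99 CPM in the midbrain inputs and 1.13, 0.806 and 0.487 CPM in the IPs. The lowest input was more than the highest IP in both regions, and the hypothalamus IPs ranged widely, from 3 to 28 counts. C1qb fell by 4.44 in the hypothalamus (log2, SE 0.62, adjusted p = 0.000266) and by 3.43 in the midbrain (SE 0.58, adjusted p = 0.000981). C1qc, the C chain, had 7, 2 and 0 counts in the hypothalamus IPs against 298, 242 and 210 in the inputs, and 27, 60 and 14 counts in the midbrain IPs against 406, 351 and 337. It fell by 6.35 (SE 0.80, adjusted p = 0.000137) and by 3.50 (SE 0.66, adjusted p = 0.00177). C1qa, the A chain, was the lowest of the 9 in the inputs, and no read of it was counted in any hypothalamus IP. Its inputs there held 104, 50 and 36 counts, so that it was at least 22.2-fold lower in the IP (adjusted p = 0.00216), taking 3 counts for each IP library. In the midbrain C1qa had 6, 0 and 3 counts in the IPs and 127, 32 and 33 in the inputs, and fell by 4.31 (SE 1.14, adjusted p = 0.0149). That call was lost without midbrain input replicate 1 (−3.47, adjusted p = 0.063).

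The purine receptors fell together. P2ry12, the ADP receptor of surveying microglia, was at 17, 8.34 and 7.89 CPM in the hypothalamus inputs and at 0.161, 0.606 and 0.0562 CPM in the IPs. In the midbrain P2ry12 stood at 18.7, 12.3 and 10.9 CPM in the inputs and at 0.383, 1.21 and 0.275 CPM in the IPs. In both regions IP replicate 2 was the highest of its group and still far below every input. P2ry12 fell by 5.31 (SE 0.79, adjusted p = 0.000385) and by 4.47 (SE 0.74, adjusted p = 0.000823). P2ry13, another ADP receptor, was the gene with the lowest share left in the midbrain. It had 1, 2 and 0 counts in the hypothalamus IPs against 315, 87 and 155 in the inputs, a ratio of mean levels of 199-fold with a 95% counting interval from 65 to 929. In the midbrain it had 10, 3 and 0 counts against 497, 181 and 191, a fall by 6.01 (SE 0.99, adjusted p = 0.000801; adjusted p = 0.000472 in the hypothalamus). Med12l, which spans both genes on the other strand, had 81.6 ± 7.51 CPM in IPs of the hypothalamus (SD, n = 3), and its log2 fold changes were −0.44 there (adjusted p = 0.014) and −0.17 in the midbrain (adjusted p = 0.302). The first was lost without hypothalamus input replicate 2 (adjusted p = 0.058) or 3 (adjusted p = 0.0663).

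Cx3cr1 and Csf1r, the receptors for the neuronal chemokine fractalkine and for the survival factors Csf1 and Il34, kept counts in every IP library. So did C1qb, P2ry12 and Laptm5. Cx3cr1 was at 9.39, 5.69 and 4.85 CPM in the hypothalamus inputs and at 0.342, 0.275 and 0.0562 CPM in the IPs, and at 10.8, 10.5 and 9.37 CPM in the midbrain inputs and 0.701, 1.27 and 0.275 CPM in the IPs. It fell by 4.88 (SE 0.66, adjusted p = 0.000202) and by 3.77 (SE 0.61, adjusted p = 0.000696). Its midbrain inputs were close to each other, while the IPs spread over the range from 13 to 66 counts. Csf1r was at 17.1, 6.98 and 8.64 CPM in the hypothalamus inputs and at 0.504, 0.239 and 0.918 CPM in the IPs. In the midbrain Csf1r stood at 20.7, 10.5 and 11.2 CPM in the inputs and at 0.850, 1.11 and 0.910 CPM in the IPs, the smallest spread relative to its mean among the midbrain IPs of the 9 genes. Csf1r fell by 4.29 (SE 0.53, adjusted p = 0.000119) and by 3.88 (SE 0.52, adjusted p = 0.000202). Csf1r lies on the plus strand of chromosome 18 (mm10, 61100598 to 61132149), and Hmgxb3 of the other strand, which overlaps its end, was at −0.10 and 0.39 (adjusted p = 0.637 and 0.065).

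Tmem119, a membrane protein used to tell microglia from other macrophages, had uneven IP values. It had 29, 0 and 25 counts in the hypothalamus IPs and 23, 22 and 0 in the midbrain IPs, against 397, 178 and 152 and 364, 164 and 235 in the inputs. In each region 1 IP library held no read while the other IP libraries held at least 22. Tmem119 fell by 3.79 in the hypothalamus (SE 1.14, adjusted p = 0.0224) and by 4.12 in the midbrain (SE 1.16, adjusted p = 0.0163), and the hypothalamus call was lost without input replicate 1 (−3.15, adjusted p = 0.0735). Laptm5, a lysosomal membrane protein of blood-derived cells, had 1, 7 and 8 counts in the hypothalamus IPs against 584, 326 and 137 in the inputs. In the midbrain it had 53, 8 and 4 counts against 630, 148 and 375, with IP replicate 1 well above the others. It fell by 6.08 (SE 1.09, adjusted p = 0.00133) and by 4.14 (SE 0.96, adjusted p = 0.00595).

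Per kilobase of annotated exon, C1qb was the most abundant of the 9 genes in both inputs, at 5.92 ± 1.84 CPM per kb in the hypothalamus and 8.02 ± 1.95 in the midbrain (SD, n = 3). P2ry12 came next at 4.35 ± 2.02 and 5.49 ± 1.63, then C1qc at 2.56 ± 0.596 and 3.98 ± 0.186, and C1qa was last at 1.22 ± 0.77 and 1.25 ± 0.955. The SD ranges of C1qb and P2ry12 overlapped in both regions. The 5 genes between C1qc and C1qa lay between 1.47 and 2.45 CPM per kb and overlapped each other within their SD, while C1qc stood clear of them in the midbrain. C1qb was also first in both IPs, at 0.269 ± 0.214 and 0.742 ± 0.295 CPM per kb. The make-up of the remaining reads was not that of the input. Csf1r gave 29.5% and Tmem119 18.3% of the 295 counts of the 9 genes in the hypothalamus IPs, but 19.1% and 8.51% of the 8540 in the inputs. C1qc and Laptm5 took less, 3.05% and 5.42% in the IPs against 8.78% and 12.3%. In the midbrain Csf1r gave 20.2% of 698 IP counts and 18.9% of 10872 input counts. These shares pool 3 libraries that spread widely and were given no test.

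The residual share answers how much of the input level was left. It lay between 0% and 7.21% for the 9 genes in the hypothalamus and between 1.52% and 9.24% in the midbrain, with medians of 2.48% (3.38% with C1qa at its floor) and 5.71%. C1qb kept 4.54% and 9.24% (95% counting intervals 3.44% to 6.31% and 7.55% to 11.1%), C1qc 1.2% and 8.77% (0.531% to 2.23% and 7.26% to 11%) and C1qa 0%, or up to 4.51% at the floor, and 4.92%. P2ry12 kept 2.48% and 4.46%, and P2ry13 0.503% and 1.52%. Cx3cr1 kept 3.38% and 7.30%, Csf1r 5.08% and 6.78%, and Laptm5 1.43% and 5.68%. Tmem119 alone of the 9 had the larger share in the hypothalamus, 7.21% (5.37% to 9.52%) against 5.71% (4.15% to 7.76%). By pairs the hypothalamus share was the lower for 8 of 9 genes at number 1, 7 at number 2 and 4 at number 3. The counting intervals cover counting error only, since the reads carry no molecular identifiers and may be copies. The spread between same-numbered pairs of IP and input was larger: C1qb kept 0.711%, 6.54% and 8.27% in hypothalamus pairs 1, 2 and 3, C1qc 7.36%, 15.8% and 3.72% in the midbrain pairs, and Tmem119 6.99%, 0% and 15.3% in the hypothalamus pairs.

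**Figure D2:**
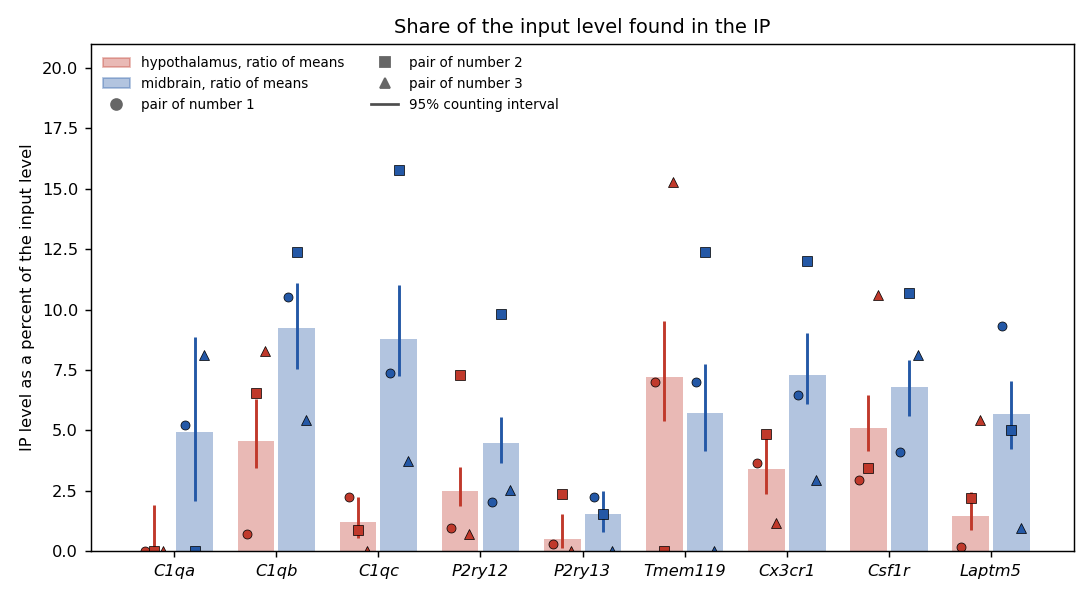
IP level of each microglia gene as a percent of its input level, in the hypothalamus (red) and the midbrain (blue). Bars are ratios of group means, lines their 95% counting intervals and symbols the 3 same-numbered pairs; the symbols spread beyond the lines, and the midbrain bar is the higher for 8 of the 9 genes, as is the midbrain symbol for 8, 7 and 4 genes in pairs 1, 2 and 3.

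Summed over the 9 genes, the hypothalamus IP kept 3.30% of the input level and the midbrain IP 6.27%. The sum was 87.7, 41.3 and 41.6 CPM in the hypothalamus inputs and 1.83, 1.62 and 2.17 CPM in the IPs. The midbrain sums were 99.9, 58.0 and 68.1 CPM in the inputs and 5.59, 6.18 and 2.39 CPM in the IPs. All 3 hypothalamus IPs lay below all 3 midbrain IPs, with midbrain IP replicate 3 close to them. The pairs kept 2.09%, 3.91% and 5.22% in the hypothalamus and 5.60%, 10.7% and 3.51% in the midbrain, and overlapped (two-sided exact permutation test, p = 0.4). For the IP sums the same exact test gave p = 0.1 and for the input sums p = 0.5, where 0.1 is the smallest p that 3 against 3 libraries allow.

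**Figure D3:**
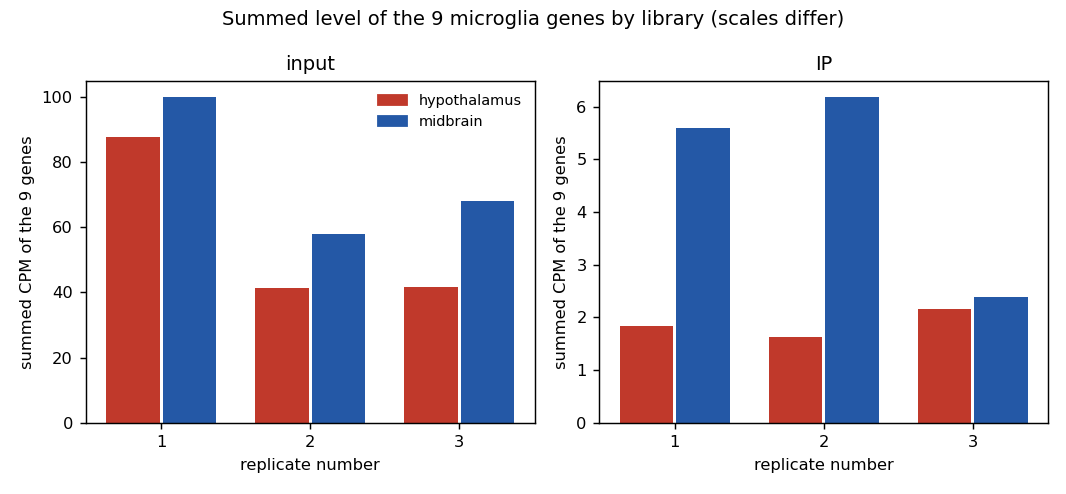
Summed CPM of the 9 microglia genes in each library, by replicate number, with inputs at left and IPs at right on different scales. Input replicate 1 is the highest of both regions (87.7 and 99.9 CPM), and the midbrain IP stands above the hypothalamus IP at every number, by least in replicate 3 (2.39 against 2.17 CPM).

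Whether the genes differ between the regions was tested in 3 ways. None of the 9 genes was called in the regional difference of IP against input, where 0.0165% of all genes were lower and 0.0607% higher. The count was 0 of 9 with edgeR, DESeq2, limma-voom and the replicate block, and 2 genes, C1qa and C1qc, had an unadjusted p under 0.05 in edgeR. C1qc was at −2.85 (SE 0.96, adjusted p = 0.494). The difference was negative for 8 of the 9 genes, with a median of −1.11. Between the IPs, C1qc was lower in the hypothalamus, with a log2 difference of −3.49 (SE 0.77, adjusted p = 0.0256), with all hypothalamus IPs, 0 to 0.141 CPM, below all midbrain IPs, 0.296 to 1.15 CPM. It was the 1 gene of 9 called and the 1 gene of 9 that did not overlap, beside 2.21% of all genes called lower and 8.52% that lay wholly below. None of the 9 was higher, where 2.05% of all genes were. The call of C1qc was lost without hypothalamus IP replicate 2 (−3.25, adjusted p = 0.1), without midbrain IP replicate 2 (−2.85, adjusted p = 0.0777) and with limma-voom (−3.92, adjusted p = 0.0511). Cx3cr1 was at −1.73 between the IPs (adjusted p = 0.15) and was called with the replicate number as a block (−1.73, adjusted p = 0.0426) and with DESeq2 (−1.75, adjusted p = 0.0331). The other 7 genes ranged from −4.71 for C1qa (SE 1.70, adjusted p = 0.172, a fitted value without a count in the hypothalamus IPs) to 0.20 for Tmem119 (SE 1.10, adjusted p = 0.964). Oligodendrocyte markers were also lower in the hypothalamus IPs, with 5 of 10 called. They summed to between 185 and 217 CPM there and between 311 and 451 CPM in the midbrain IPs. They differed between the inputs too, at 2550 to 3360 CPM in the hypothalamus and 5010 to 6330 CPM in the midbrain, with 3 of 10 called lower. Their summed residual share was 7.02% in the hypothalamus and 6.28% in the midbrain. Their part in the difference of C1qc was not tested.

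Between the inputs of hypothalamus and midbrain no microglia gene was called (edgeR 0 of 9 and 0 at an unadjusted p under 0.05; 0 with DESeq2, limma-voom and the replicate block), beside 0.601% of all genes lower and 1% higher. All 9 log2 differences were negative, with a median of −0.38, from −0.66 for P2ry13 (SE 0.76, adjusted p = 0.9) to −0.03 for C1qa (SE 0.95, adjusted p = 0.998). The sign of C1qa turned with library size scaling alone (0.08), and those of C1qa, Tmem119, Csf1r and Laptm5 turned without midbrain input replicate 1 (0.81, 0.12, 0.01 and 0.22). C1qc was the 1 gene whose inputs did not overlap, 4.23 to 6.27 CPM in the hypothalamus and 7.28 to 7.97 CPM in the midbrain, where 10.2% of all genes lay wholly below. Its difference was −0.64 (SE 0.59, adjusted p = 0.851).

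The inputs of replicate 1 held the highest microglia levels. All 9 genes were highest in replicate 1 among the hypothalamus inputs and 8 of 9 among the midbrain inputs, where C1qc was highest in replicate 3. The level in replicate 1 was 1.46 to 2.86 times the mean of replicates 2 and 3 in the hypothalamus (median 2.19) and 1.02 to 3.38 times in the midbrain (median 1.61). The IPs showed no such order: 3, 2 and 3 genes were highest in hypothalamus IPs 1, 2 and 3, with C1qa at 0 in all, and 5, 4 and 0 in the midbrain IPs. Astrocyte markers moved the same way in the inputs, summing to 1890, 833 and 982 CPM in the hypothalamus and 2010, 1080 and 1220 CPM in the midbrain. Oligodendrocyte markers did not, at 2600, 2550 and 3360 CPM and 5010, 5930 and 6330 CPM. The sum of the neuron markers did not either, at 9920, 11200 and 12900 CPM and 16300, 18400 and 18200 CPM. That sum rested mostly on Snap25, which averaged 7960 of 11300 CPM in the hypothalamus inputs and 13800 of 17600 CPM in the midbrain inputs. It therefore says little of the other neuron markers. Over the hypothalamus inputs Syt1 ranged from 292 to 840 CPM and Stmn2 from 649 to 661 CPM. The neuronal gene Slc17a6 was highest in replicate 1, so the pattern was not confined to glial genes. Its level in input replicate 1 was 1.96 times the mean of replicates 2 and 3 in the hypothalamus and 2.28 times in the midbrain. The shares of ambiguous reads given above were highest in the same 2 inputs, and their part in these levels was not tested.

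Other microglial transcripts fell with the 9 genes. Of 24 further markers 21 fell in the hypothalamus and 20 in the midbrain, none rose, and the medians were −4.39 and −3.73, counting genes without an IP read at their bound. Ctss, the lysosomal protease cathepsin S, was at −5.00 and −5.09, Itgam, the alpha chain of complement receptor 3, at −5.54 and −3.52, and the lectin Cd33 at −5.31 and −4.65. Cd53 did not pass in either region (−3.38, adjusted p = 0.0519, and −3.33, adjusted p = 0.0559), and is named after its values were seen. Of the border macrophage markers 8 of 11 tested fell in the hypothalamus and 9 of 11 in the midbrain, among them the scavenger receptor genes Stab1 (1 count against 168 in the hypothalamus, a ratio of 164-fold with a counting interval from 30.6 to 6870) and Cd163 (at least 18.3-fold lower there). Their sum, 7.94 to 20.4 CPM over the inputs, was under that of the 9 microglia genes. Blood leucocyte markers were near 0: 10 of 11 were too low to test, the list summed to at most 3.38 CPM in any library, and the markers Ccr2, S100a8 and S100a9 had between 7 and 35 counts over the 3 inputs of a region. Cd3e, the T cell marker that was tested, had 102 counts in the hypothalamus IPs, with 1 library at 1.87 CPM, and 118 in the midbrain inputs, with 1 at 2.36 CPM.

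Of 8 myeloid transcription factors 5 fell in the hypothalamus, and 4 fell and 1 rose in the midbrain. Ikzf1 (−4.54, adjusted p = 0.00142) and Sall1 (−3.21, adjusted p = 0.00143), regulators of lymphoid and myeloid cells and of microglial identity, fell in the hypothalamus. Bhlhe41 was at least 88.2 CPM in every library and rose in the midbrain by 0.60 (adjusted p = 0.0338). This call was lost with DESeq2 (adjusted p = 0.0551), with library size scaling (adjusted p = 0.111) and without midbrain IP replicate 2 or 3, midbrain input replicate 1 or hypothalamus input replicate 3 (0.45 to 0.59, adjusted p = 0.0741 to 0.126).

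Most ligands that microglia receive from other cells were not called. Of 10 ligands of microglial receptors, 2 fell and 1 rose in the hypothalamus and 1 fell in the midbrain, with medians of 0.24 and 0.11. Of all genes tested 19.6% fell and 14.2% rose in the hypothalamus, and 19.9% fell in the midbrain. Cx3cl1, the fractalkine that Cx3cr1 binds, was at 205, 48.9 and 63.5 CPM in the hypothalamus IPs and at 124, 33.3 and 65.3 CPM in the inputs (0.51, adjusted p = 0.517). In the midbrain Cx3cl1 stood at 240, 97.5 and 140 CPM in the IPs and at 125, 69.2 and 89.4 CPM in the inputs (0.75, adjusted p = 0.331). The groups overlapped in both regions, with replicate 1 the highest in each. Il34, a neuronal ligand of Csf1r, had 11.6 ± 4.97 CPM in hypothalamus IPs and 8.52 ± 4.65 in inputs (0.45, adjusted p = 0.517), and at 18.3 ± 10.6 and 7.65 ± 1.25 CPM in the midbrain (1.26, adjusted p = 0.0659). The midbrain value of Il34 was called with DESeq2 (1.2, adjusted p = 0.0359) and without midbrain IP replicate 3 (1.63, adjusted p = 0.0184) or hypothalamus input replicate 1 (1.26, adjusted p = 0.0472). Csf1, its other ligand, was at −1.13 and −1.31 (adjusted p = 0.179 and 0.123). It was called in both regions with limma-voom (adjusted p = 0.0306 and 0.049), and without hypothalamus IP replicate 1 it was at −2.48 (adjusted p = 0.00181) and −1.31 (adjusted p = 0.0164). Tgfb1, a cytokine that microglia make and need, fell in both (−3.63, adjusted p = 0.0146, and −4.15, adjusted p = 0.00819). Tgfb3 fell in the hypothalamus (−1.68, adjusted p = 0.00429) and was at −0.45 in the midbrain. Tgfb2 rose in the hypothalamus (1.52, adjusted p = 0.0158), a call lost without IP replicate 1 or input replicate 2 or 3 (1.13 to 1.48, adjusted p = 0.0507 to 0.063), and was at −0.11 in the midbrain. The surface proteins Cd200 and Cd47, which restrain microglia, were at 0.60 and 0.83 and at 0.05 and 0.33, and the bridging ligands Gas6 and Pros1 at 0.43 and 0.35 and at −2.26 and −2.25, none called in edgeR. Pros1 was called lower in both regions with DESeq2 (adjusted p = 0.022 and 0.0208), with limma-voom (adjusted p = 0.0408 and 0.0326) and without midbrain IP replicate 2 (−2.26, adjusted p = 0.0482, and −3.55, adjusted p = 0.0233). In the hypothalamus it was called without midbrain IP replicate 3 as well (−2.26, adjusted p = 0.0335). Without hypothalamus IP replicate 1 the hypothalamus values of Cx3cl1, Cd200, Cd47 and Gas6 were negative (−0.40, −0.36, −0.76 and −0.14). With the replicate number as a block, Bhlhe41 (0.47, adjusted p = 0.00541), Csf1 (−1.52, adjusted p = 0.00336), Cd200 (0.55, adjusted p = 0.0479) and Gas6 (0.40, adjusted p = 0.0441) were called in the hypothalamus. Of 5 receptors of these ligands tested, 4 fell in the hypothalamus and 3 in the midbrain, with Mertk, which takes up dying cells, at −5.30 and −4.89 and its relative Axl at −4.12 and −3.35.

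Beyond C1q, 9 of 21 complement genes tested fell in each region and none rose. In the hypothalamus Csmd2 (−1.71) and Csmd3 (−1.86), of a family of complement regulators, fell along with Itgam. Of 19 purine receptors and enzymes 6 fell in the hypothalamus and 4 in the midbrain, beside 19.6% and 19.9% of all genes tested. The midbrain count is near that share, so it sets the list apart little from other genes. Those that fell included P2rx7, an ATP-gated channel, at −4.43 and −3.41, and Entpd1, which breaks down extracellular ATP, at −2.27 and −2.90. Slc29a1, a nucleoside transporter, rose in the midbrain (1.30, adjusted p = 0.0362), though not with limma-voom (1.21, adjusted p = 0.0532) or without midbrain IP replicate 1 or 3 or input replicate 2 or 3 (0.99 to 1.22, adjusted p = 0.0921 to 0.133). Of 14 genes that mark activated microglia 8 were too low to test, and 3 of the 6 tested fell in each region, among them the tetraspanin gene Cd9 (−3.94 and −4.10).

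Markers of other glia fell as well. Astrocyte markers, 10 of 10 fallen in both regions, had a median residual share of 3.46% in the hypothalamus and 7.39% in the midbrain. Oligodendrocyte markers, 10 of 10 as well, had medians of 3.67% and 6.22%, beside 3.38% at the floor and 5.71% for the 9 microglia genes. Summed shares were 16.3% and 15.9% for astrocyte and 7.02% and 6.28% for oligodendrocyte markers, beside 3.3% and 6.27% for the 9 genes. The astrocyte sum rested mostly on Slc1a2. In the hypothalamus Slc1a2 averaged 188 CPM of a summed 201 CPM in the IPs and 892 of 1240 CPM in the inputs. Endothelial markers fell in 7 and 6 of 10. Neuron markers rose in 7 and 3 of 10, with medians of 0.70 and 0.51, and none fell. No difference between these lists was tested.

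**Figure D4:**
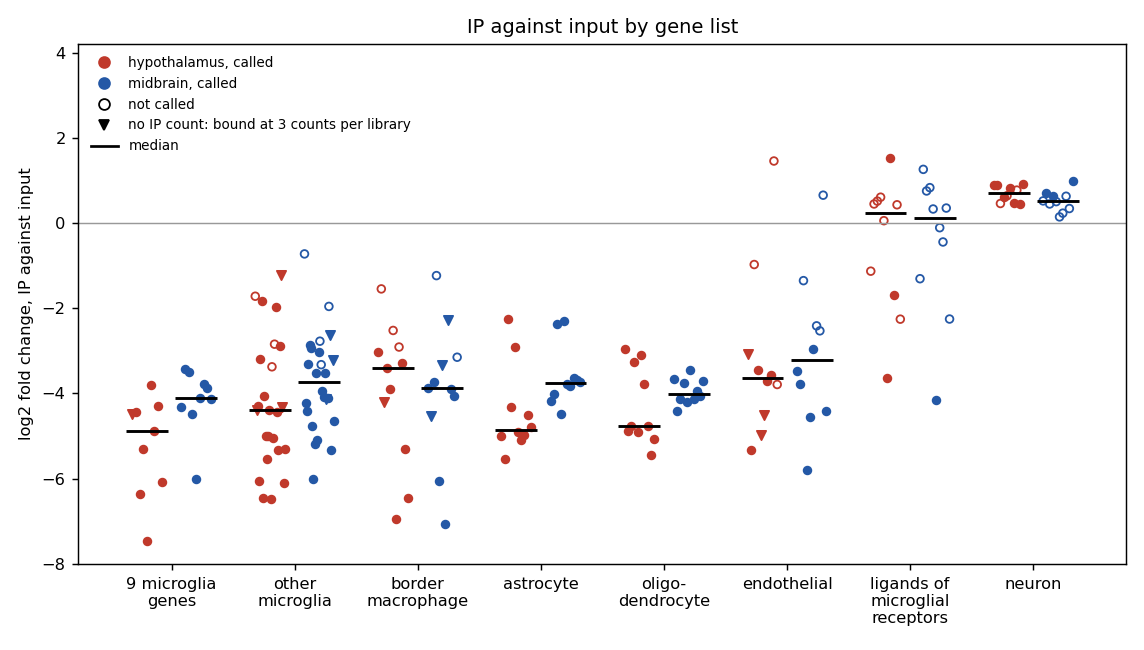
Log2 fold change of IP against input for the 9 microglia genes and 7 gene lists, 1 point a gene, in the hypothalamus (red) and the midbrain (blue). Filled points were called, open ones not, triangles are bounds for genes with no IP count and bars are medians; the microglia, astrocyte and oligodendrocyte genes lie below 0 throughout, while the ligands spread around 0 and the neuron markers lie above it.

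Across the 12 libraries the 9 genes had similar profiles. The Pearson correlation of each gene's log2 CPM with the mean standardised profile of the 9 ran from 0.894 for Tmem119 to 0.988 for P2ry13. Among 10799 other genes with at least 5 CPM in an input group, those most like this profile included Sdc4 (0.995), Mtmr10 (0.993), Vcam1 (0.993), Apoe (0.990) and Gatm (0.988). Apoe encodes the apolipoprotein made by astrocytes and microglia. In all, 239 of these genes had a correlation above 0.95. The correlations are a description over 12 libraries that share the contrast of IP with input and the high inputs of replicate 1.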

How the data were processed

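Per the submitters' processing notes, reads were aligned with STAR 2.0.0e to mm10 and counted with HTSeq. The deposited values are raw counts per gene symbol, 1 table for each of 12 libraries. The annotation, strand setting and counting mode are not given in the sources used here. The 6 rows that name no gene were left out of library sizes and tests. The 9 microglia genes, the gene lists and the tests were chosen with earlier results of these data known.

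In R 4.3.3, filterByExpr of edgeR 4.0.16 kept 18128 of 32531 genes, TMM scaled the libraries, and 1 robust quasi-likelihood fit of 4 group means gave all comparisons, with Benjamini-Hochberg adjustment over all genes tested and a threshold of 0.05. On simulated data the fit missed more of the smaller changes than of the larger. A first recovery criterion set on the smaller change was not met and was then placed on the larger, so a gene that was not called may still differ. Residual shares are mean IP over mean input CPM, with 95% exact intervals of the counts. Where a group held no count, 3 counts per library were used as a floor. Alternatives were DESeq2 1.42.0, limma-voom (limma 3.58.1), library size alone, Rn45s left out, no filter, blocks by replicate number, and each library left out. Named beyond the 9 were Slc17a6, the ligands, overlapping genes, the 6 genes most like in profile, and in other lists up to 4 genes with the largest hypothalamus change among those called at 5 CPM or more, plus any called against the list's median.

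The labels do not say what a replicate number shares. Deviations from the group means correlated between same-numbered libraries at 0.155 to 0.324 for IP and input of the hypothalamus, 0.113 to 0.301 between the IPs and 0.141 to 0.379 between the inputs, each over 0.1. They did so at 0.075 to 0.189 in the midbrain, where 2 of 3 were over 0.1. Positions are from GENCODE M21 (mm10) and promoter windows from RefSeq (GRCm38.p6). Trbc2 was not matched, and C1s was matched as C1s1. A few genes that the rule names are left out of the text.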

Additional observations from a re-analysis of the deposited data

How the results depend on the processing

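All 9 microglia genes were called lower in both IPs with DESeq2, limma-voom, each scaling, no filter and each replicate block, and 8 or 9 were when 1 library was left out. The summed residual share was 2.9% to 4.53% in the hypothalamus and 5.31% to 7.82% in the midbrain when 1 library was left out. Low IP counts limit every share: 18 of 54 were at or under 3. Scaling by library size alone lowered the genes called higher in the hypothalamus IP from 2576 to 1632. The cause of the changes listed here was not tested.

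Counts over all genes moved most between regions. For the regional difference (3 lower, 11 higher), DESeq2 gave 84 and 129, limma-voom 0 lower, no filter 17 higher, the replicate block by number 47 and 58, the replicate block by region and number 36 and 62, and leaving out a library 0 to 11 and 8 to 27. Between the IPs (401 and 372) DESeq2 gave 952 and 848, the replicate block 1224 and 800, and leaving out a library 174 to 440 and 199 to 387. Between the inputs (109 and 182) DESeq2 gave 333 and 429, limma-voom 173 lower, the replicate block 576 and 521, and leaving out a library 28 to 152 and 65 to 212. Microglia genes lower in the hypothalamus IP than in the midbrain IP numbered 1, and 2 with DESeq2, 0 with limma-voom, 2 with the replicate block and 0 to 1 without a library.

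Signs that turned belonged to values not called. Between the inputs C1qa was at 0.08 with library size alone, 0 with limma-voom and 0.09 with the replicate block. Leaving out a library gave −0.68 to 0.81 for C1qa, −0.77 to 0.12 for Tmem119, −0.86 to 0.01 for Csf1r and −0.90 to 0.22 for Laptm5. Between the IPs it gave −0.38 to 0.78 for Tmem119. In the regional difference it gave −2.18 to 0.09 for P2ry12, −2.25 to 0.07 for P2ry13, −0.25 to 0.97 for Tmem119 and −1 to 0.07 for Csf1r. In the hypothalamus Cd47 was at −0.13 with library size alone, −0.01 with limma-voom, 0 with the replicate block by number and −0.01 with that by region and number. Leaving out a library gave −0.76 to 0.75 for Cd47, −0.40 to 1.11 for Cx3cl1, −0.36 to 1.44 for Cd200, −0.14 to 0.91 for Gas6 and −0.03 to 0.49 for Slc29a1. In the midbrain it gave −0.08 to 0.74 for Cd47, −0.13 to 0.59 for Gas6 and −0.58 to 0.34 for Tgfb2.

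In the midbrain IP against input, where the numbers did not meet the rule for pairing, the replicate block by number added calls for Csf1 (−1.44, adjusted p = 0.00409), Il34 (1.11, adjusted p = 0.0109), Cx3cl1 (0.67, adjusted p = 0.0187), Cd200 (0.72, adjusted p = 0.0141) and Pros1 (−2.29, adjusted p = 0.0462). In all 18 comparisons of numbers a library correlated best with its own number. The block changed no call of the 9 genes except that of Cx3cr1 between the IPs.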
